A study of Mus musculus with 5 samples.

Results

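The genes described here encode the proteins of the cytosolic ribosome, measured in the liver of 5 inbred mouse strains, FVB/NJ, RIIIS/J, NZW/LacJ, C57BL/6J and BALB/CByJ. A gene was taken as a member when its symbol in the platform annotation was Rpl or Rps with a number and, optionally, a final a, l, x or y, or was Rplp0, Rplp1, Rplp2 or Rpsa, and when it was the only gene named for the probe set. The kinases named Rps6k were left out. This gave 46 genes, 24 of the large and 22 of the small subunit, out of 18194 genes with a probe set of their own. Where a gene had several probe sets, the one with the highest mean intensity over the 5 arrays stood for it. A further 28 symbols of the same form, Rpl3, Rpl5, Rpl10, Rpl24, Rplp1 and Rps12 among them, occurred only on probe sets that name several genes and so are not members.

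Liver RNA was hybridised to Affymetrix Mouse430_2 arrays, 1 array for each strain. Each RNA was a pool of 3 males aged 10 weeks, and all animals of all 5 strains were untreated. The arrays were run as a follow-up of an expression locus found elsewhere, to compare liver expression between strains. Values are intensities on a linear scale, as deposited, and differences are given on the log2 scale or as folds. With 1 array for each strain there is no replicate error, no test was run, and precision is limited by how few arrays there are. In a piece of liver, fewer cells of a type and less RNA per cell cannot be told apart.

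Each cytosolic ribosome joins a large subunit, which forms the peptide bonds, to a small subunit, which reads the messenger RNA. Their proteins are encoded by single expressed genes scattered over the chromosomes, accompanied by many processed pseudogenes. Most of these messenger RNAs begin with a terminal oligopyrimidine tract (TOP), a run of C and U at the very start of the transcript, through which their translation follows nutrient and growth signals by way of the mTOR kinase and the binding protein Larp1. The liver makes the plasma proteins, and hepatocytes hold abundant ribosomes.

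The start-site regions of 8 members are shown because the results turn on these genes. Each line gives the 30 bases around the longest unbroken run of pyrimidines found between 20 bases before and 50 bases after the annotated start, read 5′ to 3′ on the strand of the gene, with that run in capitals. The sequences are those of RefSeq on the build GRCm38.p6. The first 3 genes were highest in FVB/NJ, the next 3 were high in RIIIS/J and NZW/LacJ, and the last 2 were among the 5 with the narrowest span.
Rpsa, chr9:120127775-120127804, plus strand: ccggccgcccgTCCTTTCgcgctacccggg
Rps24, chr14:24490698-24490727, plus strand: ttggtcggcagtgagcggTCCTCTTTTCCT
Rplp0, chr5:115559467-115559496, plus strand: ggaccgcctggTTCTCCTataaaaggcaca
Rps3, chr7:99483673-99483702, minus strand: gcggcgtcattgCTCCCgccctatatacct
Rpl13a, chr7:45128722-45128751, minus strand: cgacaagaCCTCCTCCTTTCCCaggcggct
Rpl41, chr10:128549119-128549148, minus strand: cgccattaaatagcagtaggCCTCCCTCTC
Rps2, chr17:24720083-24720112, plus strand: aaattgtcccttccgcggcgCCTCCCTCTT
Rpl7a, chr2:26910789-26910818, plus strand: acaaTTCCCTCTTCTTTCTTTCTCCagcag

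Of the 41 members detected on all arrays (see the next paragraph), 35 had an annotated start in the promoter table, some with more than 1, giving 42 promoters. An unbroken run of at least 10 pyrimidines lay in this window in 25 of the 42 promoters, or 59.5%. Among all 32841 mouse promoters of the table the share was 12.0%, and among 75 promoters of mitochondrial ribosomal proteins it was 13.3%. A run was counted wherever it lay in the window, so it need not be a TOP tract at the start of the transcript. Counted from the annotated start, its first base was 21 in Rpsa, 39 in Rps24, 12 in Rplp0 and 20 in Rps3. It was 3 in Rpl13a, 41 in Rpl41, 41 in Rps2 and -14 in Rpl7a. The runs differed among the genes shown: 7 bases in Rpsa, 12 in Rps24, 7 in Rplp0, 5 in Rps3, 14 in Rpl13a, 10 in Rpl41, 10 in Rps2 and 21 in Rpl7a. Among other members with a narrow span the run was 5 bases in Rpl27, 9 in Rps27l and 14 in Rpl39, and in Rps25, with the widest span, it was 12. Runs were counted within the window only. Those of Rps24, Rpl41, Rps2 and Rpl39 ended at its last base and that of Rps25 began at its first, so these lengths are minimum values. The letters CCGGAAG, part of the site of the Ets and Gabpa transcription factors, were found on either strand of the 300 bases from 250 before to 50 after the start in 45.2% of the member promoters, in 34.7% of those of mitochondrial ribosomal proteins and in 8.86% of all promoters. AAGATGG, the core of the Yy1 site, was found in 11.9%, 17.3% and 6.34% in the same order, and TATAAA in 11.9%, 6.67% and 13.6%. A match describes the letters only, and its absence says only that they are not in this window.

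Detection was judged against 83 probe sets of smell, pheromone and taste receptor genes, not expected in liver, whose 95th percentile was an intensity of 8.22. Above this floor on all 5 arrays were 10496 genes of the whole series and 41 members, 21 of the large and 20 of the small subunit. A further 2 members were above it on some arrays. Rpl12, a protein near the base of the stalk, read 25.6 in FVB/NJ, against 6.69 in RIIIS/J, 6.78 in NZW/LacJ, 11.6 in C57BL/6J and 14.95 in BALB/CByJ. Rps27 read 10.1 in FVB/NJ and 7.60 to 7.74 in the other strains. Both were highest in FVB/NJ and close to the floor, and so were left out of the counts. The last 3 members were under the floor on every array: Rps16 at 4.15 to 4.42, and the paralogs Rpl3l, known from muscle, at 6.44 to 6.83 and Rpl39l, known from testis, at 5.55 to 6.14. The Rps16 reading is that of 1 probe set and says nothing of the protein. Of the 41 detected members, 34 read over 1000 on every array, and 10 gave identical values on 2 or more of the arrays.

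Across the 5 arrays the ribosomal protein genes read highest in FVB/NJ and lowest in BALB/CByJ. The quantity used was the difference on the log2 scale between 1 strain and the average of the 4 others. Its median over the 41 members was 0.28 in FVB/NJ, a fold of 1.21, and 0.07 in RIIIS/J, -0.02 in NZW/LacJ, -0.14 in C57BL/6J and -0.17 in BALB/CByJ. Over all 10496 detected genes the median was -0.02 in FVB/NJ, -0.02 in RIIIS/J, -0.01 in NZW/LacJ, 0.01 in C57BL/6J and 0.02 in BALB/CByJ. The small subunit genes had the wider shifts, with medians of 0.45 in FVB/NJ and -0.24 in BALB/CByJ, while those of the large subunit were 0.23 in FVB/NJ and -0.13 in BALB/CByJ.

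FVB/NJ was the highest strain for 28 of the 41 members, against 21.8% of all detected genes, and the lowest for 3 (Rpl37, Rps27l and Rps4l), against 28.4% of all. BALB/CByJ was the lowest strain for 23 members, against 13.4% of all detected genes, and the highest for 0, against 23.3% of all. RIIIS/J was the highest strain for 6 (Rpl14, Rpl27, Rpl41, Rpl7a, Rps26 and Rps3), against 18.2% of all. Taken pair by pair, the median difference of FVB/NJ was 0.41 from BALB/CByJ, 0.38 from C57BL/6J, 0.24 from NZW/LacJ and 0.16 from RIIIS/J, and that of C57BL/6J from BALB/CByJ was 0.04. Whole arrays also differed in level. The median log2 intensity of all detected genes was 0.09 above the mean of the arrays in FVB/NJ and 0.08 above it in BALB/CByJ, and 0.09 below it in RIIIS/J (-0.09), with NZW/LacJ at -0.07 and C57BL/6J at -0.01. When each array was centred on this median, the members' median was 0.16 in FVB/NJ, 0.18 in RIIIS/J, 0.07 in NZW/LacJ, -0.13 in C57BL/6J and -0.26 in BALB/CByJ. FVB/NJ was then highest for 20 members and RIIIS/J for 14, and BALB/CByJ was lowest for 30. The shares of all detected genes were not computed after centring, so counts after centring, here and below, stand without them. The members' medians in BALB/CByJ and C57BL/6J lay below those of the other strains with and without centring. That of FVB/NJ lay above that of RIIIS/J only without centring.

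**Figure D1:**
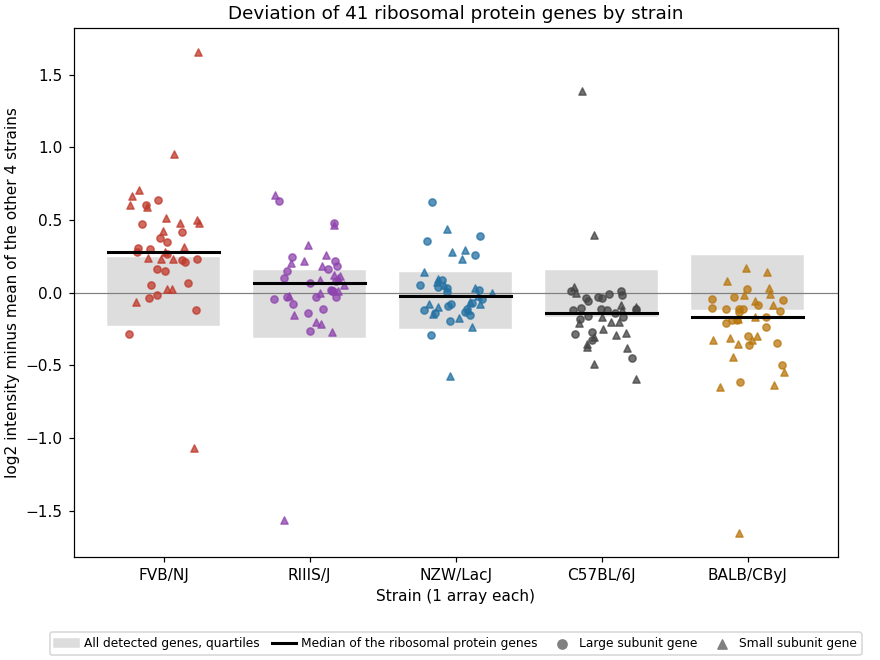
Each point is 1 of the 41 ribosomal protein genes, placed by its log2 intensity in a strain minus the average of the 4 others, with circles for the large and triangles for the small subunit. Black lines are the medians, 0.28 in FVB/NJ and -0.17 in BALB/CByJ at the ends, and grey boxes span the quartiles of all detected genes.

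The typical span between strains was smaller over the members than over all detected genes, in a comparison not matched for intensity. Of the 41 members, 34 read over 1000 on every array, a level above that of most detected genes. The highest strain was at least 1.5-fold above the lowest for 18 of the 41 members, against 58.3% of all detected genes, and the median span was 1.48-fold for the members and 1.61-fold for all detected genes. By subunit the count was 5 of 21 for the large (median span 1.36-fold) and 13 of 20 for the small (1.61-fold). A span of at least 2-fold was reached by 5 members, Rps25, Rps3, Rps4l, Rps6 and Rpsa, against 30.2% of all detected genes. A strain at least 2-fold away from its nearest neighbour was seen for 2 members, Rps25 and Rps6, against 9.78% of all. The heat map of the members shows the red column of FVB/NJ in both subunits and the blue columns of C57BL/6J and BALB/CByJ.

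**Figure D2:**
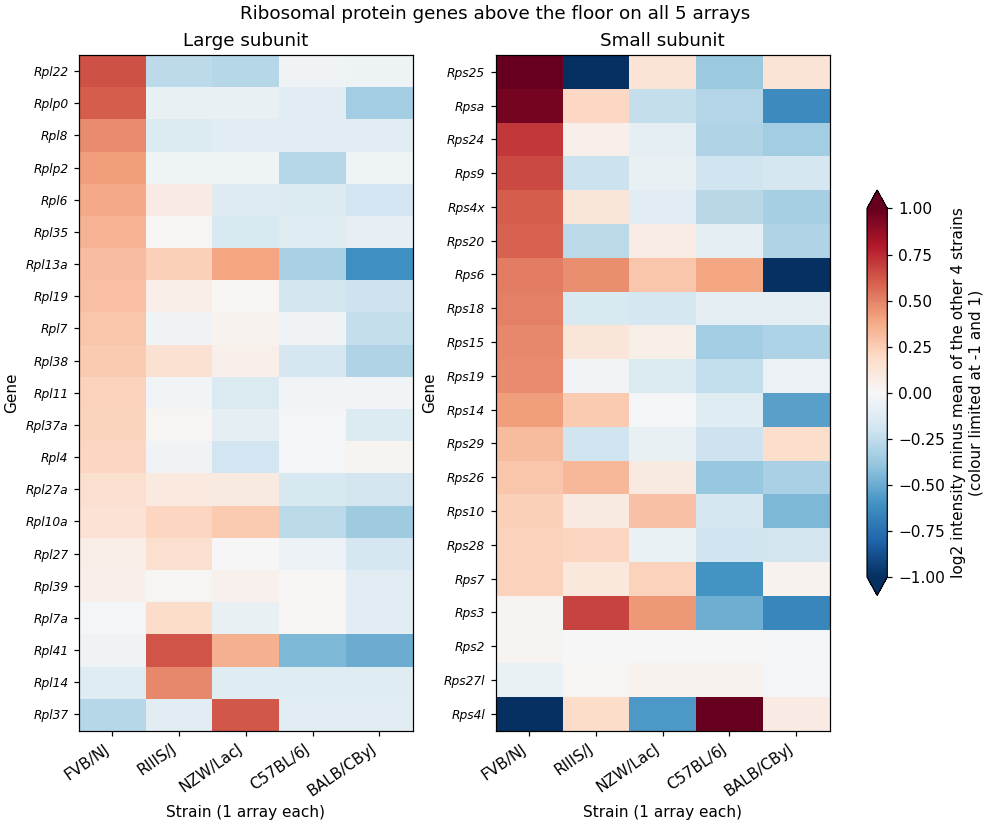
Rows are the 41 ribosomal protein genes above the floor on all 5 arrays, by subunit and ordered by their value in FVB/NJ. Colour is the log2 intensity in a strain minus the average of the 4 others, red above and blue below 0, so that Rpsa (0.96 in FVB/NJ) stands near the top and Rps4l (1.39 in C57BL/6J) at the bottom of the small subunit.

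In the large subunit, the stalk carried the widest gap of FVB/NJ. Rplp0, the protein that anchors the stalk to which elongation factors bind, read 29525 in FVB/NJ, against 20233 in RIIIS/J, 20233 in NZW/LacJ, 19923 in C57BL/6J and 17432 in BALB/CByJ. FVB/NJ lay 1.46-fold above the nearest strain, and the other 4 strains lay close together with BALB/CByJ lowest. Its partner Rplp2, an acidic stalk protein, read 17574 in FVB/NJ, against 13579.9 in RIIIS/J, NZW/LacJ and BALB/CByJ alike and 11897 in C57BL/6J. FVB/NJ was again above all others, and C57BL/6J was lowest. Rpl22, a protein of the large subunit whose loss in mice disturbs lymphocyte development, read 12348 in FVB/NJ, against 7517 in RIIIS/J, 7402 in NZW/LacJ, 8526 in C57BL/6J and 8451 in BALB/CByJ. Here RIIIS/J and NZW/LacJ were the low strains. Rpl8, which lies near the peptidyl transferase centre, read 11208 in FVB/NJ and 7990 to 8101 in the other strains.

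Among further members of the large subunit, Rpl11, which with Rpl5 and the 5S RNA forms a particle that binds Mdm2, spanned 1.23-fold, with a difference of 0.23 between FVB/NJ and the mean of the others. Rpl38, mutated in the Tail-short mouse, read 22841 in FVB/NJ, against 21460 in RIIIS/J, 20341 in NZW/LacJ, 17982 in C57BL/6J and 16743 in BALB/CByJ, a span of 1.36-fold in which C57BL/6J and BALB/CByJ were low. Rpl27a, mutated in the sooty foot ataxia mouse, spanned 1.21-fold in the same order of strains. Rpl4, a protein of the peptide exit tunnel, read 18405 in FVB/NJ, its highest strain, and 14689 in NZW/LacJ, its lowest. Rpl37 stood apart from this pattern: it read 1256 in NZW/LacJ, against 836 in RIIIS/J, C57BL/6J and BALB/CByJ alike and 761 in FVB/NJ. Rpl14 read 42.6 in RIIIS/J and 30.5 to 30.6 in the other strains, a dim probe set.

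In the small subunit, Rpsa had the widest span of the members over 1000 on every array. Rpsa encodes the protein also known as the laminin receptor, which sits at the surface of the small subunit, and it read 12108 in FVB/NJ, against 7985 in RIIIS/J, 6250.3 in NZW/LacJ, 6062 in C57BL/6J and 5015 in BALB/CByJ. FVB/NJ lay 1.52-fold above RIIIS/J, the nearest strain, and 2.41-fold above BALB/CByJ, the lowest. Rps24, a gene mutated in the inherited red cell disorder Diamond-Blackfan anemia, read 21925 in FVB/NJ, against 15261 in RIIIS/J, 14052 in NZW/LacJ, 12549 in C57BL/6J and 12220 in BALB/CByJ. FVB/NJ was 1.44-fold above the nearest, and the order of the strains was the one seen for Rpsa. Rps9, a protein at the messenger RNA entry, read 8468 in FVB/NJ, against 5192 in RIIIS/J, 5619 in NZW/LacJ, 5239 in C57BL/6J and 5343 in BALB/CByJ, so that 1 high strain faced 4 similar ones. X-linked Rps4x read 20133 in FVB/NJ, against 15362 in RIIIS/J, 13488 in NZW/LacJ, 12337 in C57BL/6J and 11993 in BALB/CByJ.

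Rps20, in which a mutation gives mice dark skin, read 28885 in FVB/NJ, against 17940 in RIIIS/J, 21722 in NZW/LacJ, 19709 in C57BL/6J and 17641 in BALB/CByJ. FVB/NJ was 1.33-fold above the nearest strain, and RIIIS/J and BALB/CByJ were lowest. Rps19, the gene most often mutated in Diamond-Blackfan anemia, read 8533 in FVB/NJ, against 6466 in RIIIS/J, 6049 in NZW/LacJ, 5709 in C57BL/6J and 6341 in BALB/CByJ. Rps14, the gene in the human 5q deletion whose loss impairs red cell formation, read 18676 in FVB/NJ, against 17104 in RIIIS/J, 14625 in NZW/LacJ, 13845 in C57BL/6J and 10942 in BALB/CByJ. For Rps14 BALB/CByJ was the strain apart, 1.27-fold below the nearest. In all, FVB/NJ was at least 25% above the nearest strain for 12 of the 41 members, against 11% of all detected genes: Rpl22, Rpl8, Rplp0, Rplp2, Rps18, Rps19, Rps20, Rps24, Rps25, Rps4x, Rps9 and Rpsa. BALB/CByJ lay so low that the nearest strain was at least 25% above it for 2 members, Rps14 and Rps6, against 2.49% of all.

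In a second pattern, RIIIS/J and NZW/LacJ read above C57BL/6J and BALB/CByJ, which for some members went with FVB/NJ as the highest strain and for others did not. Rps3, a small subunit protein that also takes part in DNA repair, read 15259 in RIIIS/J and 13374 in NZW/LacJ, against 10655 in FVB/NJ, 8007 in C57BL/6J and 7326 in BALB/CByJ. The span was 2.08-fold, with FVB/NJ in the middle. Rpl41, the smallest protein of the large subunit, read 25236 in RIIIS/J and 21709 in NZW/LacJ, against 17446 in FVB/NJ, 13887 in C57BL/6J and 13524 in BALB/CByJ. This was the same order of strains as for Rps3. Rpl13a, a large subunit protein that in human monocytes also silences inflammatory messenger RNAs, read 38484 in RIIIS/J and 41814 in NZW/LacJ, against 39860.1 in FVB/NJ, 28111 in C57BL/6J and 23945 in BALB/CByJ. Here 3 strains were high and 2 were low.

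Both RIIIS/J and NZW/LacJ were above both C57BL/6J and BALB/CByJ for 20 of the 41 members, against 14.2% of all detected genes; this split was chosen after the values were seen. FVB/NJ was the highest strain for 12 of these 20, Rpsa, Rps24 and Rplp0 among them, and for the other 8 RIIIS/J or NZW/LacJ was highest. Rps10, mutated in some families with Diamond-Blackfan anemia, read 17659 in RIIIS/J and 19788 in NZW/LacJ, against 15337 in C57BL/6J and 13142 in BALB/CByJ, with FVB/NJ at 19176. Its further detected probe sets all had FVB/NJ highest, the brightest with 17585 in FVB/NJ against 15846 in NZW/LacJ. On the dimmest of them RIIIS/J and C57BL/6J both read 6257. Rpl10a spanned 1.41-fold in the same split, with NZW/LacJ highest at 15186 and BALB/CByJ lowest at 10774. Rps7, which like Rpl11 binds Mdm2, was low in C57BL/6J alone on the probe set used. It read 9010.4 there, against 14216 in FVB/NJ, 13266 in RIIIS/J, 14233 in NZW/LacJ and 12755 in BALB/CByJ, and C57BL/6J was 1.42-fold below the nearest. The other probe set of Rps7 had both C57BL/6J (9224) and BALB/CByJ (9496) low, against 10926 to 13137 in the other strains.

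The 3 widest spans of all belonged to probe sets of low or middling intensity. Rps25, a small subunit protein needed for translation from some viral internal entry sites, read 62.4 in FVB/NJ, against 10.5 in RIIIS/J, 26.9 in NZW/LacJ, 20.2 in C57BL/6J and 26.9 in BALB/CByJ, a span of 5.95-fold close to the floor. Rps4l, a paralog of Rps4x, read 973 in C57BL/6J, against 249 in FVB/NJ, 498 in RIIIS/J, 328 in NZW/LacJ and 472 in BALB/CByJ. C57BL/6J was 1.95-fold above the nearest strain and FVB/NJ was lowest, whereas FVB/NJ was the highest strain for Rps4x. Rps6, the small subunit protein phosphorylated by the S6 kinases, read 144 in BALB/CByJ, against 479 in FVB/NJ, 468 in RIIIS/J, 422 in NZW/LacJ and 449 in C57BL/6J. BALB/CByJ lay 2.92-fold below the nearest strain, and the other 4 strains lay together.

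At the other end, 5 members had the narrowest spans. Rps2, at the entry of the messenger RNA channel, read 11750.2 to 12006, a span of 1.02-fold. It was 1 of the members with identical values, at 11805.4 in RIIIS/J, NZW/LacJ and C57BL/6J alike, and the cause of such ties was not tested. Rps27l, a paralog of Rps27 that p53 induces, read 9386 in FVB/NJ, against 9767 in RIIIS/J, 9893 in NZW/LacJ, 9921 in C57BL/6J and 9648 in BALB/CByJ. Its span was 1.06-fold, with FVB/NJ lowest. Its 2 further probe sets also had FVB/NJ lowest, with spans of 1.03-fold and 1.23-fold. X-linked Rpl39 spanned 1.09-fold on a dim probe set (65.7 to 71.7, with RIIIS/J and C57BL/6J both at 70.1) and Rpl7a 1.18-fold. Rpl27 read 6753 in BALB/CByJ, its lowest strain, and 8115 in RIIIS/J, its highest. Its further probe sets spanned 1.59-fold, with C57BL/6J lowest, and 1.22-fold, with BALB/CByJ lowest.

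Several members were read by more than 1 probe set, which allowed the order of strains to be checked within the same arrays. Among 42 further detected probe sets of 19 members, FVB/NJ was highest in 32 and BALB/CByJ lowest in 25. The shares over all detected genes were 21.8% and 13.4%. The deviations of such a probe set and of the one used differed by a median of 0.09 on the log2 scale, with an SD of 0.50. For Rps24, 3 further probe sets of high intensity also had FVB/NJ highest and BALB/CByJ lowest, with 17603, 19820 and 17462 in FVB/NJ against 10532, 11101 and 8836 in BALB/CByJ. For Rpl13a, all 3 further probe sets had C57BL/6J and BALB/CByJ as the low strains; the brightest of them read 18695 in RIIIS/J and 18571 in NZW/LacJ, against 14822 in FVB/NJ, 9903 in C57BL/6J and 7297 in BALB/CByJ. For Rpl41, 1 further probe set kept RIIIS/J highest (6513 in RIIIS/J, against 4747 in FVB/NJ), while the dim ones read 65.7 and 122 in FVB/NJ, their highest strain, against 16.3 and 65.8 in RIIIS/J. For Rps3 the only other detected probe set was dim, at 25.1 to 33.8, and did not show the pattern. Rpsa and Rplp0 had no further detected probe set.

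**Figure D3:**
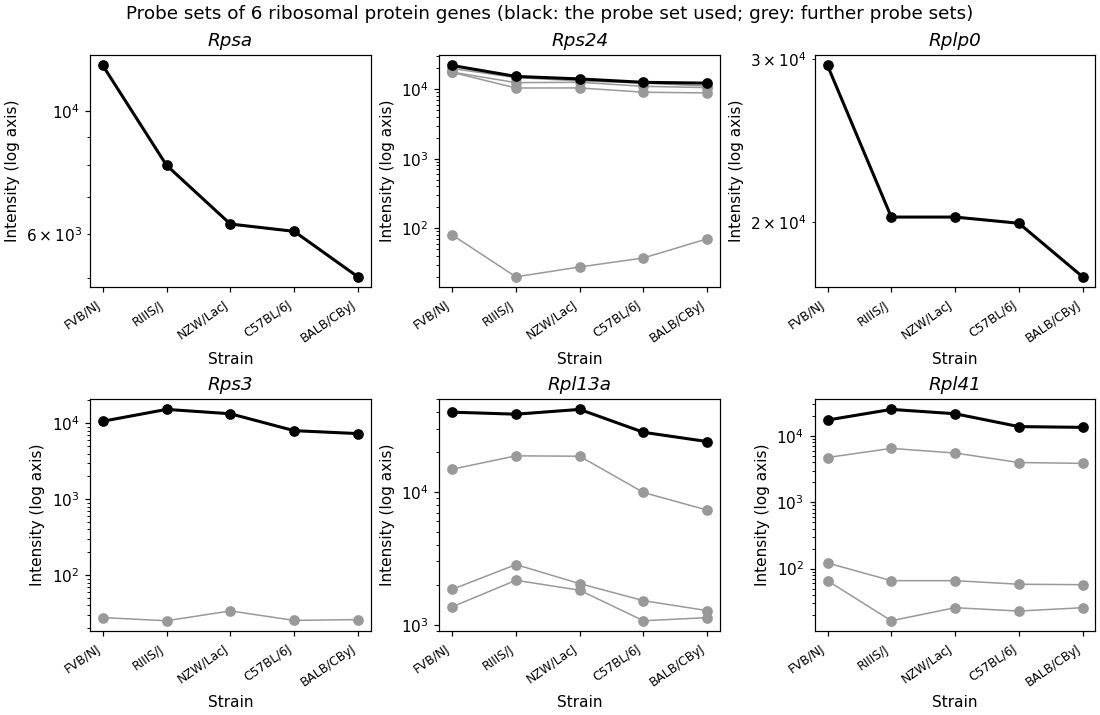
Intensity on a log axis in each of the 5 strains for 6 ribosomal protein genes, with the probe set used in black and further probe sets above the floor in grey. Lines only join the readings of 1 probe set. Rps24 is highest in FVB/NJ in all of its bright probe sets, and its dim probe set has RIIIS/J rather than BALB/CByJ lowest. Rpl13a is low in C57BL/6J and BALB/CByJ in all 4, and the dim probe sets of Rps3 and Rpl41 do not follow the bright ones.

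A probe set of a ribosomal protein gene can also bind transcripts of its pseudogenes or relatives. Probe sets with the suffixes _s_at, _x_at and _a_at are marked by the manufacturer as matching more than 1 transcript. For _a_at these are transcripts of the same gene, so this suffix does not mark binding to other genes. Without them 16 detected members remained, with a median of 0.42 in FVB/NJ and -0.13 in BALB/CByJ. FVB/NJ was highest for 12 of the 16, against 21.8% of all genes detected with every probe set kept. For Rps24, Rps9, Rpl41 and Rps3 this replaced a bright probe set with a dim one. The probe sets of Rps25, Rpl14 and Rpl39 were dim in either case. The median of 0.42 thus rests in part on dim probe sets, and the part of binding to other transcripts was not tested. The 97 detected probe sets that name a ribosomal protein gene together with other genes, and so are not members, had medians of 0.31 in FVB/NJ, -0.004 in RIIIS/J, -0.02 in NZW/LacJ, -0.12 in C57BL/6J and -0.14 in BALB/CByJ. FVB/NJ was the highest strain for 66 of these 97, against 21.8% of all detected genes, and BALB/CByJ the lowest for 35, against 13.4%. Probe sets that also name a member were not excluded from the 97, so some may read the same transcripts as the members. With that limit, the order of FVB/NJ and BALB/CByJ was also seen in probe sets outside the rule, read on the same arrays.

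Markers of other cell types moved with FVB/NJ and RIIIS/J. Hepatocyte markers (Alb, Ttr, Hnf4a, Apoa1 and Tat, 5 of 5 above the floor on every array) summed to 200025 in FVB/NJ, 223382 in RIIIS/J, 205599 in NZW/LacJ, 213883 in C57BL/6J and 203693 in BALB/CByJ. B cell markers summed to 26651 in FVB/NJ, with 6 of 6 above the floor, against 325 to 873 elsewhere, with 4 of 6 above the floor and Cd79a and Pou2af1 under it. T and NK cell markers summed to 313 in FVB/NJ, with 6 of 7 above the floor, against 51.2 to 53.0 elsewhere, with 3 of 7 above it. Markers of dividing cells summed to 905 in FVB/NJ, with 4 of 5 above the floor, against 93.3 to 124 elsewhere, with 2 of 5 above it. Those of erythroid cells, 4 of 4 above the floor on every array, summed to 6033 in FVB/NJ, against 1287 to 3747 elsewhere. Not every marker followed these sums. Alas2 was highest in NZW/LacJ (3444, against 2861 in FVB/NJ). Top2a read 7.80 in FVB/NJ and 8.68 to 11.5 elsewhere, and Cd4 read 8.21 in FVB/NJ and 8.82 to 9.74 elsewhere. Cd8a was level at 14.1 to 14.2. Kupffer cell markers, with 5 or 6 of 6 above the floor, summed to 3326 in FVB/NJ, and 1663 to 3578 in the other strains, and their median deviation in FVB/NJ was 0.56 over the 5 detected on all arrays. FVB/NJ was highest for Lyz2 (1749 in FVB/NJ, against 460 to 747 elsewhere), Marco (172 in FVB/NJ, against 5.40 to 8.27 elsewhere) and Timd4 (56.5 in FVB/NJ, against 8.61 to 10.8 elsewhere). It was not highest for Clec4f and Cd5l, which NZW/LacJ led, or for Adgre1, which C57BL/6J led. In RIIIS/J the pancreatic acinar markers summed to 31061, with 3 of 3 above the floor, against 683 to 1271 elsewhere, where Cpa1 was under it. The ratio of the 3′ to the 5′ probe set of actin, a sign of RNA integrity, was 4.98 in FVB/NJ, 2.76 in RIIIS/J, 3.73 in NZW/LacJ, 3.93 in C57BL/6J and 3.80 in BALB/CByJ, while that of Gapdh was 0.90 to 1.01. The part of these cells, and of RNA integrity, in the readings of the ribosomal protein genes was not tested.

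Genes that share the pathway were read from lists. Fau, which encodes the small subunit protein eS30 under another symbol, read 13807 in FVB/NJ, against 11470 in RIIIS/J, 9357 in NZW/LacJ, 8918 in C57BL/6J and 8483 in BALB/CByJ, the order of strains seen for Rpsa and Rps24. Rpl22l1, the paralog that Rpl22 holds down in mice, read 3699 in FVB/NJ, against 2770 in RIIIS/J, 3657 in NZW/LacJ, 3583 in C57BL/6J and 4400 in BALB/CByJ. It was highest in BALB/CByJ and lowest in RIIIS/J, while Rpl22 was highest in FVB/NJ. Rpl7l1 read 609 in FVB/NJ, 714 in RIIIS/J, 790 in NZW/LacJ, 424 in C57BL/6J and 621 in BALB/CByJ.

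Other messenger RNAs with a TOP tract gave a similar median in FVB/NJ. Of 25 listed genes 21 were detected, with medians of 0.31 in FVB/NJ, -0.06 in RIIIS/J, -0.12 in NZW/LacJ, -0.05 in C57BL/6J and -0.06 in BALB/CByJ. FVB/NJ was highest for 15 of the 21, against 21.8% of all detected genes, and lowest for 0, and with arrays centred on their medians it was highest for 9. Pabpc1, the cytoplasmic poly(A) binding protein, read 11340.0 in FVB/NJ, against 5383 in RIIIS/J, 5308 in NZW/LacJ, 6902 in C57BL/6J and 6302 in BALB/CByJ. Npm1, the nucleolar chaperone nucleophosmin, read 3240 in FVB/NJ, against 1690.0 in RIIIS/J, 1868 in NZW/LacJ, 2257 in C57BL/6J and 2468 in BALB/CByJ. Eef1a1, which brings aminoacyl-tRNA to the ribosome, was nearly level at 30085 to 31579. The list also holds Vim, a gene of non-hepatocyte cells, which read 1251 in FVB/NJ and 312 to 535 in the other strains. The list shares Fau and several elongation and initiation factors with the other lists. Among 8 detected elongation factors the median in FVB/NJ was 0.12, and FVB/NJ was highest for 5. Eef2, the translocation factor, read 9923 in FVB/NJ, against 7303 in RIIIS/J, 7315 in NZW/LacJ, 8537 in C57BL/6J and 9249 in BALB/CByJ.

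Initiation factors and tRNA synthetases followed another order. Among 29 detected initiation factors the median was 0.15 in RIIIS/J and -0.02 in FVB/NJ, and RIIIS/J was highest for 13, against 18.2% of all detected genes. Eif5, which prompts GTP hydrolysis at the start codon, read 12705 in RIIIS/J, against 8127 in FVB/NJ, 8846 in NZW/LacJ, 7946 in C57BL/6J and 7235 in BALB/CByJ. Among 19 detected cytosolic aminoacyl-tRNA synthetases the median was 0.16 in RIIIS/J and -0.04 in FVB/NJ, and RIIIS/J was highest for 11. Tars, the threonine enzyme, read 2436 in RIIIS/J, against 1024 in FVB/NJ, 1896 in NZW/LacJ, 1313 in C57BL/6J and 1391 in BALB/CByJ. RIIIS/J was also the array with the high acinar markers given above, and their part was not tested.

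Genes that build ribosomes had no single high strain. For 36 ribosome biogenesis genes the median was 0.19 in BALB/CByJ, 0.03 in FVB/NJ, 0.01 in RIIIS/J, -0.17 in NZW/LacJ and -0.17 in C57BL/6J. BALB/CByJ was highest for 12, against 23.3% of all detected genes, RIIIS/J for 11, against 18.2%, and FVB/NJ for 8, against 21.8%. The 8 led by FVB/NJ were Ncl, Npm1, Nop56, Nop58, Fbl, Dkc1, Tsr1 and Rrp1, and FVB/NJ was lowest for 4 of the list. Ncl, the nucleolar protein nucleolin, read 3384 in FVB/NJ, its highest strain, and 3106 in BALB/CByJ, against 1273 in RIIIS/J, 854 in NZW/LacJ and 2106 in C57BL/6J. For 24 detected genes of RNA polymerases I and III and their factors, which make the ribosomal RNAs, the median was 0.18 in BALB/CByJ and 0.11 in FVB/NJ. For 21 detected genes of mTOR signalling and TOP control the median was 0.05 in BALB/CByJ and -0.03 in FVB/NJ. FVB/NJ was highest for 3 of them, Tia1, Ddit4 and Myc, and lowest for 6. Larp1 read 732 to 941 across the 5 strains and Mtor 375 in FVB/NJ against 452 to 571 in the others. Tia1 read 383 in FVB/NJ against 139 to 154 in the others. Of the 10 S6 kinase genes listed, 4 were detected, with a median of 0.09 in FVB/NJ.

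Mitochondrial ribosomal proteins, which build the separate ribosome inside mitochondria, ran against the cytosolic ones in FVB/NJ. All 76 on the list were detected, with medians of -0.40 in FVB/NJ, 0.16 in RIIIS/J, 0.17 in NZW/LacJ, -0.09 in C57BL/6J and 0.04 in BALB/CByJ. FVB/NJ was the lowest strain for 59 of the 76, against 28.4% of all detected genes, and the highest for 0, and it was lowest for 64 with arrays centred on their medians. Mrps12 read 419 in FVB/NJ, against 1187 in RIIIS/J, 690 in NZW/LacJ, 846 in C57BL/6J and 668 in BALB/CByJ. Mrpl3 read 308 in FVB/NJ, against 630.0 in RIIIS/J, 947 in NZW/LacJ, 381 in C57BL/6J and 441 in BALB/CByJ. The gene furthest from this direction was Mrpl18, with 1376 in FVB/NJ against 904 to 1458 in the other strains. The plot of list medians shows the FVB/NJ points of the cytosolic ribosomal proteins and other TOP messenger RNAs at the right and that of the mitochondrial ribosomal proteins at the left.

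**Figure D4:**
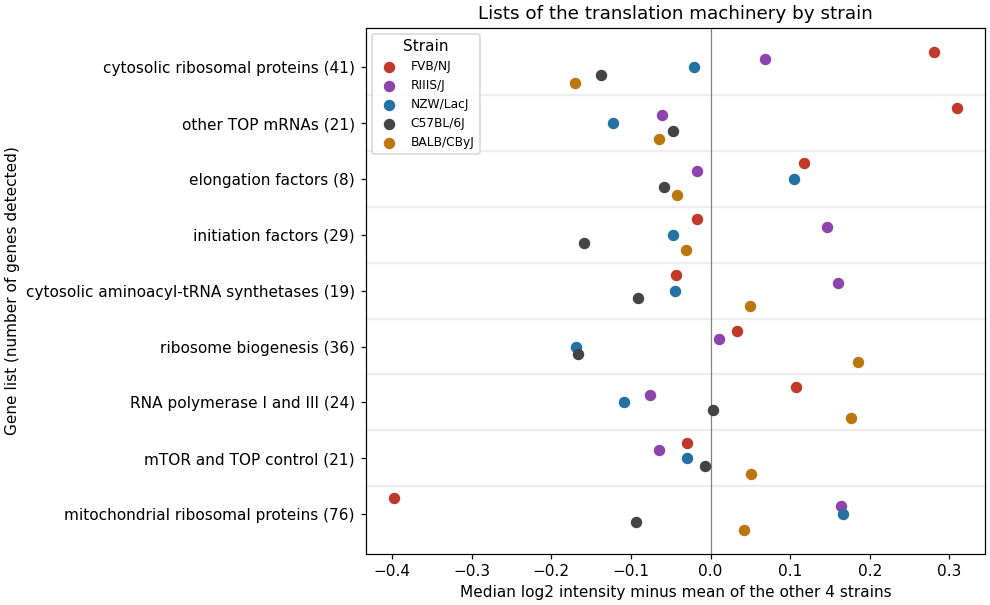
Each point is the median, over the detected genes of a list, of the log2 intensity in a strain minus the average of the 4 others. FVB/NJ lies at 0.28 for cytosolic ribosomal proteins, 0.31 for other TOP messenger RNAs and -0.40 for mitochondrial ribosomal proteins, and BALB/CByJ at -0.17, -0.06 and 0.04.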

How the data were processed

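Liver RNA of 5 strains, 1 array each, was measured on Affymetrix Mouse430_2 arrays. Per the labels' protocols, RNA was purified with Trizol and RNeasy and labelled with biotin by in vitro transcription. The deposited values are intensities on a linear scale, and the programs the authors used were GCOS and GCRMA, as the submitters' processing notes list them. Their versions are not given in the sources used here. Of 45101 probe sets, 34958 named 1 gene by the platform annotation, 932 several and 9211 none; 34754 matched the mouse reference gene table.

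From these, log2 intensities were taken, each gene was given its brightest probe set, and a floor was set at the 95th percentile of receptor probe sets (intensity 8.22). A strain was compared with the mean of the other 4. Counts of members stand beside the share of all detected genes. No test was possible without replicates, and depth does not apply to arrays. Members, lists, thresholds and the rule for naming genes were chosen with earlier results of these data known. The rule named the 10 widest and 5 narrowest spans, the 3 genes furthest above and below the nearest strain in each strain, members under the floor on some arrays, and members with fixed roles; Rpl22, Rpl8, Rpl10a, Rps18 and Rps26, and the genes named from the lists beyond Fau, the paralogs and the elongation factors, were added after their values were seen. Promoter sequences came from RefSeq (GRCm38.p6), and motifs were searched in them by exact match. Alternatives were other floors, other probe set rules, quantile normalization, centring of arrays and leaving out each array. The counting was tested on simulated data. Python 3.11.15, numpy 2.4.6, pandas 2.3.3 and matplotlib 3.10.9 were used.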

Additional observations from a re-analysis of the deposited data

How the results depend on the processing

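No paired analysis was possible because there was only 1 array for each strain. Values are called unchanged here within 0.09 log2, the median difference between probe sets of a member, and counts within 1.5 times. Among the summary results 217 alternative values were unchanged by this measure, 44 moved and 3 turned in direction. Centring arrays on their medians gave members' medians of 0.16 in FVB/NJ, 0.18 in RIIIS/J and 0.068 in NZW/LacJ (turned), 14 highest and 1 lowest in RIIIS/J, 2 lowest in NZW/LacJ, 1 highest and 4 lowest in C57BL/6J, 7 with FVB/NJ 25% above the nearest, 31 with RIIIS/J and NZW/LacJ above C57BL/6J and BALB/CByJ, and 9 other TOP genes highest in FVB/NJ. The NZW/LacJ median also turned against the median of the other strains (0.00012). Without probe sets ending in _s_at, _x_at or _a_at, which leaves 16 members, the FVB/NJ median was 0.42; highest counts were 12 in FVB/NJ, 2 in RIIIS/J, 1 in NZW/LacJ and 1 in C57BL/6J, lowest counts 1 in FVB/NJ, 2 in NZW/LacJ, 0 in C57BL/6J and 9 in BALB/CByJ, with 6 for the 25% gap of FVB/NJ, 9 for the 1.5-fold span, 6 for the split of strain pairs and 7 other TOP genes highest in FVB/NJ. The 99th percentile floor (28.2) left 1 gene with a strain 2-fold from its nearest, as did the mean of probe sets, which also gave 3 highest in NZW/LacJ. No floor gave 6 lowest in FVB/NJ and 5 highest in C57BL/6J. Quantile normalization gave 5 lowest in RIIIS/J and 8 in NZW/LacJ. The span count was 33 at 25% and 5 at 2-fold. Counting all 83 detected probe sets, chosen after seeing the data, gave 60 highest in FVB/NJ, 48 lowest in BALB/CByJ and 42 with a 1.5-fold span. On other probe sets Rpl41 read -0.95 and -0.13 and Rps3 -0.16 in RIIIS/J, and Rps20 -0.14 and Rps9 -0.73 in FVB/NJ. The cause of these changes was not tested. Removing probe sets by suffix left fewer members and moved Rps24, Rps9, Rpl41 and Rps3 to dim probe sets.

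Leaving out 1 array at a time gave medians of 0.23 to 0.32 in FVB/NJ, 0.01 to 0.15 in RIIIS/J, -0.060 to 0.064 in NZW/LacJ (0.064 without FVB/NJ), -0.20 to -0.05 in C57BL/6J and -0.23 to -0.16 in BALB/CByJ. Counts of members highest were 28 to 31 in FVB/NJ, 6 to 20 in RIIIS/J (20 without FVB/NJ), 5 to 9 in NZW/LacJ (9 without FVB/NJ), 2 to 3 in C57BL/6J and 0 to 2 in BALB/CByJ. Counts lowest were 3 to 6 in RIIIS/J, 5 to 8 in NZW/LacJ, 7 to 23 in C57BL/6J (23 without BALB/CByJ) and 23 to 27 in BALB/CByJ. The 1.5-fold span was reached by 11 to 18 members (11 without FVB/NJ), a 2-fold gap by 1 to 3, and a 25% gap of FVB/NJ by 12 to 16.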

Other observations

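The arrays also carry control probe sets for the 18S ribosomal RNA, the RNA of the small subunit. The 5′ probe set read 780 in FVB/NJ, 5805 in RIIIS/J, 330 in NZW/LacJ, 1234 in C57BL/6J and 1708 in BALB/CByJ. The 3′ probe set read 358 in FVB/NJ, 429 in RIIIS/J, 210.0 in NZW/LacJ, 363 in C57BL/6J and 684 in BALB/CByJ. NZW/LacJ was lowest in both, and the highest strain differed between them. No level of ribosomal RNA is read from these controls.

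Rps9 has a probe set that departs from the one used. It read 3916 in C57BL/6J, against 185 in FVB/NJ, 135 in RIIIS/J, 135 in NZW/LacJ and 126 in BALB/CByJ, a span of 31.0-fold, while the probe set used had C57BL/6J at 5239 among strains of 5192 to 8468. Another probe set of Rps9 read 76.4 in FVB/NJ, against 24.2 in RIIIS/J, 14.6 in NZW/LacJ, 31.5 in C57BL/6J and 45.9 in BALB/CByJ. Of the p53 targets and regulators listed for ribosomal stress, Mdm2, which free Rpl11 and Rps7 bind, read 133 in BALB/CByJ, against 108 in FVB/NJ, 67.1 in RIIIS/J, 82.7 in NZW/LacJ and 112 in C57BL/6J.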
